A study of Rattus norvegicus with 311 samples.

Results

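The Cyp4 genes Cyp4a1, Cyp4a2, Cyp4a8 and Cyp4f1 encode cytochrome P450 enzymes that hydroxylate fatty acids. They were read as every probe row of a rat liver-cell TempO-Seq count table whose gene symbol is 1 of these 4 names, whatever its values. Of the 4 genes, 3 had a row and these held 5 of the 22253 probes, which carry 21143 distinct symbols. Cyp4a1 and Cyp4a8 had 1 probe each and Cyp4a2 had 3, numbered 32530, 8426 and 8425. Cyp4f1 was not analysed here.

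CYP4A enzymes sit in the endoplasmic reticulum of hepatocytes and place a hydroxyl group on the last (omega) carbon of medium- and long-chain fatty acids. Alcohol and aldehyde dehydrogenases turn the product into a dicarboxylic acid, which peroxisomes shorten. In rat liver, Cyp4a1 is a textbook target of peroxisome proliferator-activated receptor alpha (PPARα), which binds DNA as a pair with the retinoid X receptor at direct repeats of a short half-site. Of the compounds used, GW7647 is a selective PPARα agonist and gemfibrozil is a lipid-lowering fibrate. Phenobarbital is the classical inducer of Cyp2b genes through the receptor CAR. Ketoconazole is an antifungal that inhibits the sterol demethylase CYP51 and other P450 enzymes.

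The promoters are shown because a match to the receptor's half-site, AGGTCA, was looked for in them. RefSeq's promoter table for the rat build GRCr8 matched 3 of the 4 genes, and Cyp4a1 was not among them. The 250 bases before the annotated start of Cyp4a2 (chr5:134170909-134171158, minus strand) and of Cyp4a8 (chr5:133970227-133970476, minus strand) read as follows, with a half-site match in capitals.
Cyp4a2: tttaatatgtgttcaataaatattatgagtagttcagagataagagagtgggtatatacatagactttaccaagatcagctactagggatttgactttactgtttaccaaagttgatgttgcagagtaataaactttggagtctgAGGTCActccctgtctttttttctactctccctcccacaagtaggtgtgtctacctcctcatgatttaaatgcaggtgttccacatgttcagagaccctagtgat
Cyp4a8: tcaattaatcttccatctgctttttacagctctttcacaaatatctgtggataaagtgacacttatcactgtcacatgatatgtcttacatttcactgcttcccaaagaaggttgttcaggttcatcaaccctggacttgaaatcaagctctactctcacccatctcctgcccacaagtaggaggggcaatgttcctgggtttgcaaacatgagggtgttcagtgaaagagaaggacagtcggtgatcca
Searched on both strands, the Cyp4a2 window held 1 AGGTCA, 105 bases before the start, and the Cyp4a8 window held 0. Among all 33465 promoter windows of the same length, 14.1% held AGGTCA. The direct repeat AGGTCANAGGTCA, which contains that half-site, was in neither window and in 0.0508% of all windows. Its best alignment had 3 mismatches in the Cyp4a2 window, as good a match as 21.4% of all windows allow, and 4 mismatches in the Cyp4a8 window, where 74.5% of windows do as well. These matches describe letters in the window only. The Cyp4a2 window was 94.4% identical to that of its neighbour Cyp4a3 and, over 214 aligned bases, 100.0% identical to that of Cyp4a2l1. No probe carries either neighbour's name. A share of the Cyp4a2 counts could come from those transcripts, which is uncertain. The promoter windows cannot show it, and no probe sequences were available.

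Hepatocytes freshly isolated from male Sprague Dawley rats, supplied by Lonza, were plated on collagen in multiwell plates, either together with non-parenchymal liver cells (co-culture, 155 libraries) or alone (monoculture, 156 libraries). Wells received GW7647 at 0.01, 0.1 or 1 µM, gemfibrozil at 10, 100 or 1000 µM, phenobarbital at 0.1, 1 or 10 mM, ketoconazole at 1, 10 or 30 µM, or vehicle for the last day before lysis on day 1, 3 or 7 after plating. The labels name no transgene and no age, and they call the vehicle wells untreated without naming the solvent. The 78 groups held 3 to 5 libraries, 1 per plate number in the sample titles. These were plates 1, 3, 5 and 7, and plate 9 for 9 libraries of day 3, none of them vehicle. The titles do not say whether a plate is a culture plate or a plate of the assay. The labels call the replicates biological and name no animals, so p-values measure the spread between these wells.

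Library totals ran between 412414 and 12272575 counts (median 6054414), and 1 library, a 30 µM ketoconazole monoculture of day 7 on plate 1, was under 1000000. Levels are given as counts scaled to a library total of 1000000 (CPM), which can be compared between samples for 1 probe but not between probes. A count of 0 in the median library allows up to 0.496 CPM, counting error only. In 33 monoculture libraries named for phenobarbital, another label field names ketoconazole, and the phenobarbital dose field has µM where the design text has mM. In 3 co-culture libraries of day 3 named for GW7647 at 0.1 µM the dose field has 1 µM. The name and the design text were followed. The summed level of 10 hepatocyte markers in vehicle wells was 9422 to 13900 CPM in co-culture on day 7 and 4026 to 18940 CPM in monoculture on day 7, against 47860 to 92410 and 39320 to 57180 CPM on day 1. Fewer hepatocytes and less RNA per hepatocyte cannot be told apart in these samples. The 10 macrophage markers also gave 113 to 230.3 CPM in vehicle monocultures of day 1, and none of the 10 was at 0 throughout a vehicle group.

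Cyp4a2 was read mainly by probe 32530, with 232362 counts over all libraries and 0 in 8 of 311. Probe 8426 had 25090 counts and probe 8425 had 2104, with 0 in 184 libraries. Cyp4a1 had 47056 counts and 0 in 49 libraries, and Cyp4a8 had 1023 counts and 0 in 185. In the rest of the text, Cyp4a2 levels and tests are those of probe 32530 unless another probe is named. The share of probe 8426 relative to probe 32530, in libraries with at least 100 counts of the second, differed between plates. Its median was 10.8%, 15.7% and 12.7% on plates 1, 5 and 7 (59, 42 and 40 libraries), and 3.49% and 3.2% on plates 3 and 9 (23 and 5 libraries). Cyp4a1 relative to probe 32530 had medians of 66.9% and 72.7% on plates 3 and 9 and of 9.29%, 10.6% and 16.0% on plates 1, 5 and 7. These Cyp4a1 medians pool days, and the days differed, with plate 9 on day 3 only. On day 1 the Cyp4a1 median was 29.3% on plate 3 and 4.82%, 7.06% and 13.3% on plates 1, 5 and 7. On day 7 it was 181% on plate 3, 127% on plate 7, and 32.0% and 37.8% on plates 1 and 5. The part of these proportions in any result was tested only through the fits with the plate as a block and without each plate.

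**Figure D1:**
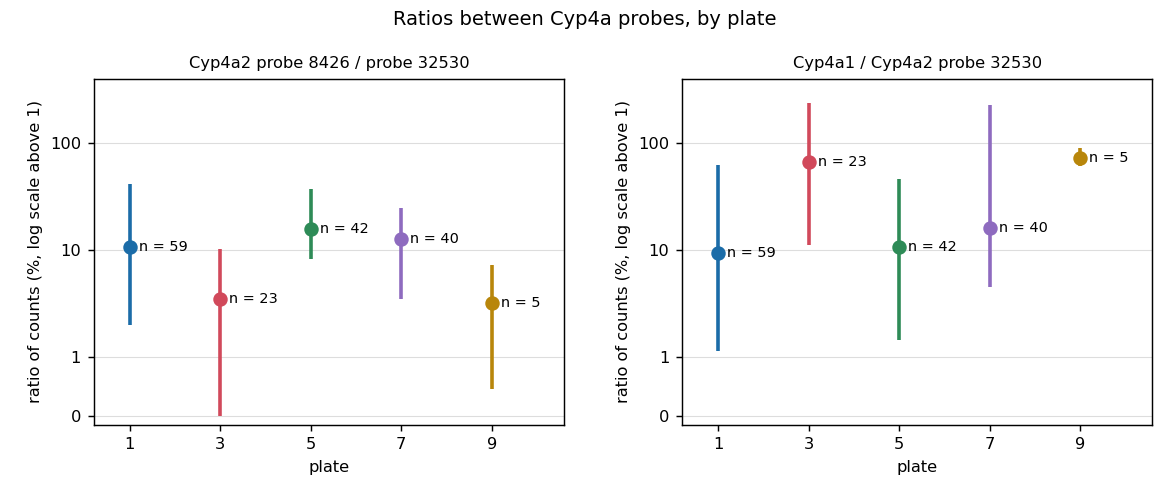
Counts of Cyp4a2 probe 8426 (left) and of Cyp4a1 (right) as a percentage of the counts of Cyp4a2 probe 32530 in the same library, by plate, on an axis that is logarithmic above 1%. Points are medians and bars run between the lowest and highest library with at least 100 counts of probe 32530 (n beside each point); plates 3 and 9 have medians of 3.49% and 3.2% on the left and 66.9% and 72.7% on the right, over all days together.

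GW7647 raised Cyp4a2 and Cyp4a1 in monocultures of day 3, where both genes passed the test over all probes. Values of single wells follow the order of plates 1, 3, 5, 7 and, where present, 9. In monocultures of day 3 with 1 µM GW7647 (plates 1, 5, 7 and 9), Cyp4a2 had 1536, 160.4, 757 and 242 CPM, against 27.3, 0.446, 3.99 and 2.30 CPM in vehicle wells (plates 1, 3, 5 and 7). Every treated well was above every vehicle well. The log2 fold change was 6.40 ± 1.47 (SE), adjusted p = 0.0386 by edgeR's quasi-likelihood test with Benjamini-Hochberg adjustment over the 13439 probes tested on that day. Cyp4a1 had 167, 15.4, 139.8 and 221 CPM in those treated wells, against 0, 0.223, 0 and 0 CPM in vehicle wells, where only 1 count was seen in 4 libraries. The ratio of the summed counts per summed TMM-scaled library total, treated over vehicle, was 2143 with a counting interval of 384 to 84690.0 at 95% (edgeR adjusted p = 0.0114). Of all probes, 0.0967% were called higher in that comparison, beside which both tested member genes were called.

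These were the only calls (adjusted p under 0.05) among 42 tests of Cyp4a1, Cyp4a2 (probe 32530) and Cyp4a8 under GW7647. With the plate as a block in the model there were 10 calls, all higher, and DESeq2 gave 12. Without plate 1, 5 or 7 the edgeR calls numbered 0, without plate 3 they numbered 1, and without plate 9 they numbered 2. Against the vehicle well of the same plate, culture and day, Cyp4a2 was higher in 24 of 24 wells at 0.01 µM, 23 of 23 at 0.1 µM and 21 of 23 at 1 µM. Cyp4a1 was higher in 21 of 24, 23 of 23 and 21 of 23 wells.

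On day 1 both genes were higher with 1 µM GW7647 in every well of both cultures, and 3 of the 4 differences, which did not pass by edgeR without the block, passed with the plate as a block and by DESeq2. In co-cultures with 1 µM GW7647, Cyp4a2 had 1789, 330.0, 965 and 223 CPM, against 34.4, 12.7, 73.3 and 29.7 CPM in vehicle wells. In monocultures it had 2082, 508, 1486 and 273 CPM with 1 µM, against 65.0, 4.44, 56.9 and 68.9 CPM with vehicle. Treated and vehicle wells did not overlap in either culture, and plates 1 and 5 were highest among the treated wells. The log2 fold change of Cyp4a2 was 4.45 ± 1.18 in co-culture (adjusted p = 0.138 by edgeR, 0.0141 with the block) and 4.50 ± 1.19 in monoculture (0.147, and 0.00631 with the block). The block fits called 0.192% of probes higher in co-culture and 0.24% in monoculture.

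Cyp4a1 on day 1 had 68.0, 82.1, 179 and 10.1 CPM in co-cultures with 1 µM GW7647, against 4.05, 8.86, 7.21 and 7.81 CPM with vehicle. In monocultures it had 84.6, 56.1, 76.0 and 14.8 CPM with 1 µM, against 5.02, 4.72, 3.28 and 11.3 CPM with vehicle. The groups did not overlap, although the treated well of plate 7 came close to the highest vehicle well in both cultures. As a log2 fold change this was 3.59 ± 1.01 in co-culture (edgeR adjusted p = 0.191, 0.031 with the block) and 3.26 ± 0.99 in monoculture (0.51, and 0.169 with the block). The rarest Cyp4a2 probe, 8425, did pass without the block in monocultures of day 1, with a log2 fold change of 5.94 ± 1.37 and adjusted p = 0.0382 by edgeR, and 0.112% of probes were called higher there. That probe had 28.2, 2.16, 21.2 and 2.23 CPM with 1 µM, against 0, 0, 0.365 and 0.491 CPM with vehicle, which rest on 5 counts. Probe 8426 had 191, 29.2, 215 and 44.5 CPM in the same treated wells, against 4.88, 0, 6.93 and 7.53 CPM, and its test is not reported here.

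On day 3 in co-culture, 1 library stood apart. Cyp4a2 had 773, 0, 368, 257 and 102 CPM in the 5 wells with 1 µM GW7647, against 14.6, 1.65, 3.16 and 1.49 CPM in vehicle wells, and Cyp4a1 had 75.9, 0, 57.4, 37.8 and 90.7 CPM, against 7.28, 0, 0 and 0 CPM. The treated well of plate 3 was at 0 for both genes while the other 4 were above every vehicle well. In that library Acot1, another PPARα target, was also at 0. Its total of 3122054 counts was within the range of the other libraries, and the edgeR values below without the block are given with and without it. Cyp4a2 had a log2 fold change of 5.90 ± 1.43 (edgeR adjusted p = 0.222, 0.000469 with the block), and Cyp4a1 of 4.97 ± 1.61 (0.466, and 0.134 with the block). Without that library the adjusted p was 0.0621 for Cyp4a2 and 0.345 for Cyp4a1, with log2 fold changes of 6.25 and 5.30. The block fit called 0.0149% of probes higher, and the fit without it 0.0%.

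On day 7 both genes were again higher in most wells with GW7647, but neither passed. In co-cultures with 1 µM GW7647, Cyp4a2 had 31.5, 125, 104 and 44.0 CPM, against 38.2, 2.63, 6.42 and 4.48 CPM with vehicle, and in monocultures 730.4, 187, 106 and 52.5 CPM, against 30.8, 8.58, 10.3 and 7.45 CPM. In monoculture the groups did not overlap, and in co-culture the treated well of plate 1 lay below its vehicle well. Cyp4a1 had 3.88, 301, 41.8 and 32.9 CPM in treated co-cultures, against 19.2, 11.7, 3.65 and 3.20 CPM, with the highest value on plate 3. In treated monocultures Cyp4a1 had 84.0, 343, 39.9 and 78.6 CPM, against 11.8, 23.9, 4.64 and 4.74 CPM with vehicle. The log2 fold changes were 2.52 ± 1.35 and 4.17 ± 1.45 for Cyp4a2 and 3.32 ± 1.32 and 3.56 ± 1.33 for Cyp4a1, in co-culture and monoculture, all with an edgeR adjusted p of 1. Of all probes, 0.0% were called higher on that day in either culture.

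Group means of both genes were above vehicle at every GW7647 dose. Mean Cyp4a2 on day 1 was 37.5, 229.9, 705 and 827 CPM in co-culture at vehicle, 0.01, 0.1 and 1 µM, and 48.8, 214, 756 and 1087 CPM in monoculture. On day 3 the means were 5.22, 32.8, 182 and 300.1 CPM in co-culture, and 8.52, 61.5, 379.6 and 674 CPM in monoculture. Mean Cyp4a1 on day 1 was 6.98, 11.2, 59.7 and 84.7 CPM in co-culture, and 6.08, 9.48, 88.0 and 57.9 CPM in monoculture. On day 3 mean Cyp4a1 was 1.82, 3.18, 30.0 and 52.3 CPM in co-culture, and 0.0557, 3.98, 38.1 and 136 CPM in monoculture. The means on days 1 and 3 were higher at each next dose except for Cyp4a1 in monocultures of day 1, where 0.1 µM was above 1 µM. On day 7 the exception was Cyp4a2 in co-cultures, with 12.9, 166, 310.0 and 76.1 CPM. No step between neighbouring GW7647 doses passed for either gene, in comparisons added after the values were seen. On day 3 at 0.01 µM, Cyp4a1 had 3.45, 3.01, 3.35 and 2.91 CPM in co-culture, a narrow range, while 3 of the 4 vehicle wells were at 0. In co-cultures of day 7, Cyp4a2 on plate 1 reached 633 CPM at 0.01 µM and 1109.7 CPM at 0.1 µM, while the other plates lay between 7.72 and 46.1 CPM at those doses.

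**Figure D2:**
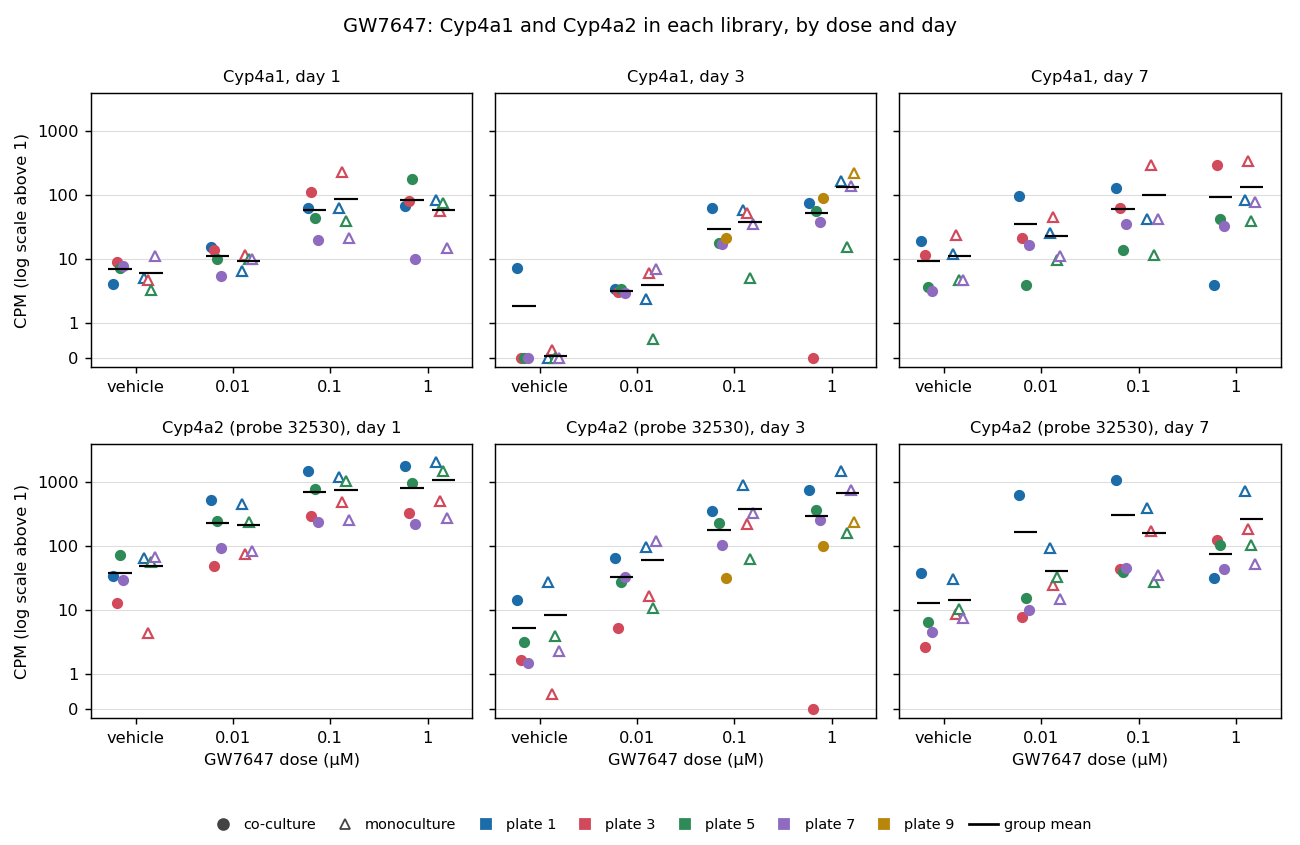
CPM of Cyp4a1 (top) and Cyp4a2 probe 32530 (bottom) in every library, by GW7647 dose and day, on an axis that is logarithmic above 1 CPM. Each point is 1 well (filled, co-culture, open, monoculture, colours, plates) and bars are group means. Group means at every dose lie above the vehicle mean of the same culture and day. Wells of 0.01 µM overlap the vehicle wells except for Cyp4a2 in monocultures of day 1 and Cyp4a1 in monocultures of day 3. The co-culture well of plate 3 with 1 µM on day 3 is at 0 for both genes.

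Enzymes that act downstream of omega-hydroxylation moved in some of the same wells. Of 21 tested probes of a list of omega-oxidation and peroxisomal steps, 2 rose with 1 µM GW7647 on day 1 in each culture, and 0 fell, where 0.08% of all probes were called higher in co-culture and 0.112% in monoculture. Ehhadh, the bifunctional enzyme of peroxisomal beta-oxidation, rose in both cultures. Ehhadh averaged 130.1 ± 69.6 CPM in treated monocultures and 2.83 ± 1.54 CPM in vehicle monocultures (SD, n = 4 each; log2 fold change 5.52 ± 1.22, adjusted p = 0.0215 by edgeR). In co-cultures of day 1 the log2 fold change of Ehhadh was 5.42 ± 1.23, adjusted p = 0.0376 by edgeR. The list's median log2 fold change was 0.66 in monoculture and 0.38 in co-culture, beside -0.03 and 0.05 over all probes. On day 3, 3 of 22 probes rose in monoculture and 0 in co-culture, where 0.0967% and 0.0% of all probes did. Those 3 were Ehhadh, Crot, which moves shortened acyl groups out of peroxisomes, and Acsl1, which activates fatty acids. Of the other Cyp4 probes, 0 of 6 passed on day 1 and 0 of 7 on day 3 in each culture, and 0 of 16 receptor and cofactor probes did, Ppara among them.

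With 1000 µM gemfibrozil on day 1, Cyp4a1 was called higher in both cultures, with plate 3 far above the other plates. In co-cultures Cyp4a1 had 1.15, 338, 1.75 and 4.12 CPM with 1000 µM, against 4.05, 8.86, 7.21 and 7.81 CPM with vehicle. In monocultures it had 15.5, 612, 4.04 and 15.5 CPM, against 5.02, 4.72, 3.28 and 11.3 CPM. The treated wells of plate 3 were far above all others in both cultures, and the other 3 treated co-culture wells had less than the vehicle well of their own plate. The log2 fold change was 3.65 ± 1.01 in co-culture (edgeR adjusted p = 0.0336, 0.0517 with the block) and 4.75 ± 1.06 in monoculture (adjusted p = 0.00648). Without plate 3 these were -1.37 (adjusted p = 0.396) and 0.87 (adjusted p = 0.619). Without plate 1 or 5 the adjusted p was 0.184 or 0.233 in co-culture and 0.143 or 0.0797 in monoculture. Of all probes, 1.22% were called higher in co-culture and 1.62% in monoculture.

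Cyp4a2 on day 1 had 39.9, 238, 37.4 and 29.3 CPM in co-cultures with 1000 µM gemfibrozil, against 34.4, 12.7, 73.3 and 29.7 CPM with vehicle. In monocultures it had 163, 538, 54.1 and 97.5 CPM, against 65.0, 4.44, 56.9 and 68.9 CPM. Plate 3 was again the highest treated well and the lowest vehicle well in both cultures. Fitted over all groups, the log2 fold change was 1.21 ± 1.05 in co-culture (edgeR adjusted p = 0.536) and 2.16 ± 1.07 in monoculture (0.268, and 0.0194 with the block, which called 3.02% of probes higher). The 2 calls above were the only ones among 42 tests under gemfibrozil.

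At 100 µM gemfibrozil Cyp4a2 differed widely between plates. On day 1 it had 90.6, 13.6, 229 and 46.0 CPM in co-culture and 364, 20.9, 236 and 46.4 CPM in monoculture, with plates 1 and 5 highest. On day 3 it had 152, 4.83, 120.0, 4.59 and 15.3 CPM in co-culture and 191, 1.02, 35.7, 7.41 and 21.5 CPM in monoculture. At 1000 µM on day 3 the group means were lower, with 9.43, 7.91, 5.56 and 4.95 CPM in co-culture (plates 1, 5, 7 and 9) and 17.2, 1.13, 12.02, 4.70 and 12.8 CPM in monoculture. On day 7 Cyp4a2 had 379, 40.7, 6.39 and 3.67 CPM at 100 µM and 17.1, 13.9 and 7.76 CPM at 1000 µM (plates 3, 5 and 7) in co-culture. Against the vehicle well of the same plate, Cyp4a2 was higher in 15 of 24 wells at 10 µM, 20 of 24 at 100 µM and 17 of 22 at 1000 µM. Cyp4a1 was higher in 10 of 24, 18 of 24 and 13 of 22 wells. Between 1000 and 100 µM a difference passed in 1 test, for Cyp4a1 in monocultures of day 1, which had 8.28, 6.31, 15.7 and 8.64 CPM at 100 µM (log2 fold change 4.06 ± 1.02, edgeR adjusted p = 0.0353), in a comparison added after the values were seen. Of all probes, 0.608% were called higher in that step.

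**Figure D3:**
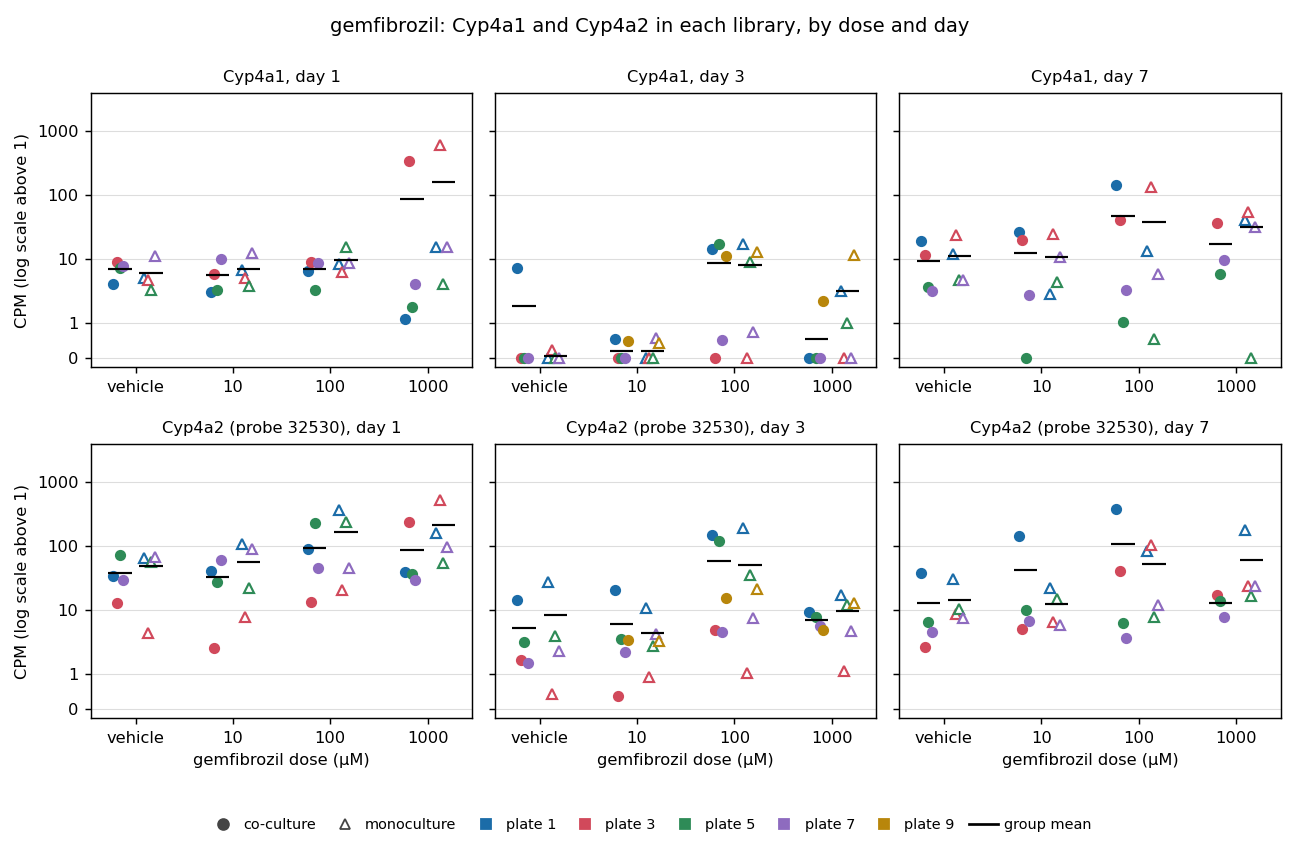
CPM of Cyp4a1 (top) and Cyp4a2 probe 32530 (bottom) in every library, by gemfibrozil dose and day, on an axis that is logarithmic above 1 CPM. Each point is 1 well (filled, co-culture; open, monoculture; colours, plates) and bars are group means; at 1000 µM on day 1 the wells of plate 3 have 338 and 612 CPM of Cyp4a1 in co-culture and monoculture, and the next highest has 15.5 CPM.

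Among the omega-oxidation list, 2 of 21 probes rose with 1000 µM gemfibrozil in monocultures of day 1 and 1 of 21 in co-cultures, and 0 fell, where 1.62% and 1.22% of all probes rose. Acot3, an acyl-CoA thioesterase, rose in monocultures (log2 fold change 2.85 ± 0.70, adjusted p = 0.0131 by edgeR). The hepatocyte marker sum was 21820 to 31670 CPM in co-cultures with 1000 µM on day 1, against 47860 to 92410 CPM with vehicle, and 18400 to 80290 CPM in monocultures, against 39320 to 57180 CPM. On day 3, Hnf4a, a receptor that maintains hepatocyte expression, fell with 1000 µM gemfibrozil to 24.3 ± 20.4 CPM in co-culture (n = 4), against 173 ± 78.2 CPM with vehicle (SD, n = 4; log2 fold change -2.81 ± 0.62, adjusted p = 0.0143 by edgeR). In monocultures of day 3 Hnf4a fell to 68.9 ± 42.6 CPM, against 326 ± 84.8 CPM (-2.23 ± 0.56, adjusted p = 0.0288). The share of all probes called lower in these comparisons of day 3 is not reported here. The part of the marker sums and of Hnf4a in the Cyp4a levels was not tested.

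GW7647 and gemfibrozil are both PPARα ligands, GW7647 a designed agonist and gemfibrozil a fibrate drug, and their highest doses, 1 and 1000 µM, are not matched. Cyp4a2 and Cyp4a1 were higher with 1 µM GW7647 than with 1000 µM gemfibrozil on day 3, and 3 of 14 tests of the pair passed. In monocultures Cyp4a2 had 1536, 160.4, 757 and 242 CPM with GW7647 (plates 1, 5, 7 and 9), against 17.2, 1.13, 12.02, 4.70 and 12.8 CPM with gemfibrozil, without overlap (log2 fold change 6.17 ± 1.31, edgeR adjusted p = 0.00709). Cyp4a1 had 167, 15.4, 139.8 and 221 CPM with GW7647, against 3.19, 0, 0.991, 0 and 11.7 CPM with gemfibrozil (log2 fold change 5.46 ± 1.48, adjusted p = 0.0452 by edgeR). In co-cultures Cyp4a2 passed (log2 fold change 5.43 ± 1.38, adjusted p = 0.0415 by edgeR, 0.0303 without the GW7647 library of plate 3), and Cyp4a1 had 75.9, 0, 57.4, 37.8 and 90.7 CPM with GW7647, against 0, 0, 0 and 2.23 CPM with gemfibrozil (0.0676, 0.00106 with the block, which called 1.78% of probes higher, and 0.0369 if the 3 libraries with a conflicting dose field are taken as 1 µM). Of all probes, 0.424% were called higher in monoculture and 0.216% in co-culture.

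On the other days no test of the pair passed by edgeR, while DESeq2 called Cyp4a2 higher with GW7647 in co-cultures of day 1. The Cyp4a2 log2 fold change between GW7647 and gemfibrozil was 2.34 ± 1.08 in monocultures of day 1 (edgeR adjusted p = 0.197). Leaving out plate 1 or 5 gave 0 calls, plate 7 gave 1, plate 9 gave 2 and plate 3 gave 4, against 3 with all plates. The pair was tested over 14 Cyp4 tests with p-values adjusted over all probes of each comparison.

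With 10 mM phenobarbital, Cyp4a2 rose on day 1 in monoculture. Monocultures named for phenobarbital had 2151, 624, 55.9 and 179 CPM of Cyp4a2, against 65.0, 4.44, 56.9 and 68.9 CPM with vehicle, and co-cultures had 1159, 300.3, 64.1 and 79.0 CPM, against 34.4, 12.7, 73.3 and 29.7 CPM. Plates 1 and 3 were far above every vehicle well, whereas plate 5 lay below its own vehicle well in both cultures. The log2 fold change was 4.00 ± 1.16 in monoculture (edgeR adjusted p = 0.0291) and 3.43 ± 1.13 in co-culture (0.0758, and 0.0163 with the block). In monoculture the adjusted p was 0.218, 0.169 and 0.128 without plates 1, 5 and 7, and 0.0243 without plate 3. Of all probes, 1.93% were called higher in monoculture, and 3.2% in co-culture with the block. This was 1 call among 42 tests under phenobarbital, and Cyp4a2 was above the vehicle well of its plate in 12 of 22 wells at 10 mM over the 3 days.

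Cyp4a1 on day 1 had 24.4, 149.6, 5.45 and 13.1 CPM in monocultures with 10 mM phenobarbital, against 5.02, 4.72, 3.28 and 11.3 CPM with vehicle, and 19.8, 52.6, 2.89 and 8.78 CPM in co-cultures, against 4.05, 8.86, 7.21 and 7.81 CPM. Plate 3 was the highest treated well in both cultures. Neither difference passed (log2 fold change 3.03 ± 0.98 and edgeR adjusted p = 0.0577 in monoculture, 1.62 ± 0.94 and 0.363 in co-culture). As a check on the names, Cyp2b2, the classical phenobarbital-induced gene, averaged 30.1 ± 48.5 CPM in those monocultures and 0.299 ± 0.430 CPM with vehicle (SD, n = 4 each; log2 fold change 6.67 ± 1.65, adjusted p = 0.00843 by edgeR). Cyp51, the ketoconazole target, averaged 54.3 ± 24.9 CPM and 46.5 ± 19.5 CPM in the same wells (edgeR adjusted p = 0.807). It rose with 30 µM ketoconazole (log2 fold change 1.98 ± 0.47, edgeR adjusted p = 0.00517). The phenobarbital wells carry the dose number 10, and Cyp51 with 10 µM ketoconazole is not reported here. These values cover 4 of the 33 libraries with the conflicting field. Cyp2b2 also had 12.5, 0, 6.4, 0.96 and 9.7 CPM in co-cultures of day 3 with 1 µM GW7647. The vehicle wells there had 0, 0.82, 0 and 0 CPM. On days 3 and 7 no Cyp4 test under phenobarbital passed. Cyp4a2 had 129.6, 4.02, 0.756 and 2.33 CPM in monocultures with 10 mM on day 7, against 30.8, 8.58, 10.3 and 7.45 CPM with vehicle, with only plate 1 above its vehicle well.

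Ketoconazole wells of day 7 had lower values of Cyp4a1 and Cyp4a2 on nearly every plate, but no test passed by edgeR without the block. Against the vehicle well of the same plate on day 7, Cyp4a2 was lower in 8 of 8 wells at 1, at 10 and at 30 µM, and Cyp4a1 in 7, 8 and 8 of 8. In monocultures with 30 µM, Cyp4a1 had 0, 0, 0 and 0.567 CPM (4 counts in all), against 11.8, 23.9, 4.64 and 4.74 CPM with vehicle. Cyp4a2 had 0, 0.750, 0 and 1.13 CPM in those wells, against 30.8, 8.58, 10.3 and 7.45 CPM. The groups did not overlap for either gene, and the well of plate 1 is the shallowest library of the series, in which 0 counts allow up to 7.27 CPM. On the log2 scale the fold change was -5.58 ± 1.80 for Cyp4a1 (edgeR adjusted p = 0.0507, 0.0213 with the block) and -4.41 ± 1.70 for Cyp4a2 (0.095, and 0.0297 with the block). Of all probes, 3.44% were called lower without the block and 8.15% with it. Of 42 tests under ketoconazole, 0 passed by edgeR, 5 had an unadjusted p under 0.05, and DESeq2 called 2 lower.

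Across ketoconazole doses in monocultures of day 7, mean Cyp4a2 was 14.3, 10.8, 1.80 and 0.471 CPM at vehicle, 1, 10 and 30 µM. Mean Cyp4a1 was 11.3, 6.92, 2.15 and 0.142 CPM. Both were lower at each next dose. In co-cultures with 30 µM on day 7, Cyp4a2 had 28.8, 0, 0.207 and 0.805 CPM, against 38.2, 2.63, 6.42 and 4.48 CPM with vehicle, with plate 1 high and the others near 0. At 1 and 10 µM the co-culture well of plate 1 had 0.525 and 0.620 CPM, so its values did not follow the dose. The hepatocyte marker sum was 3505 to 21830 CPM in monocultures with 30 µM on day 7, against 4026 to 18940 CPM with vehicle. On day 1 the levels with 30 µM overlapped those with vehicle, with 115, 6.24, 25.5 and 66.8 CPM of Cyp4a2 in monocultures, against 65.0, 4.44, 56.9 and 68.9 CPM. Over the 3 days, Cyp4a2 was below the vehicle well of its plate in 16, 19 and 19 of 24 wells at 1, 10 and 30 µM.

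**Figure D4:**
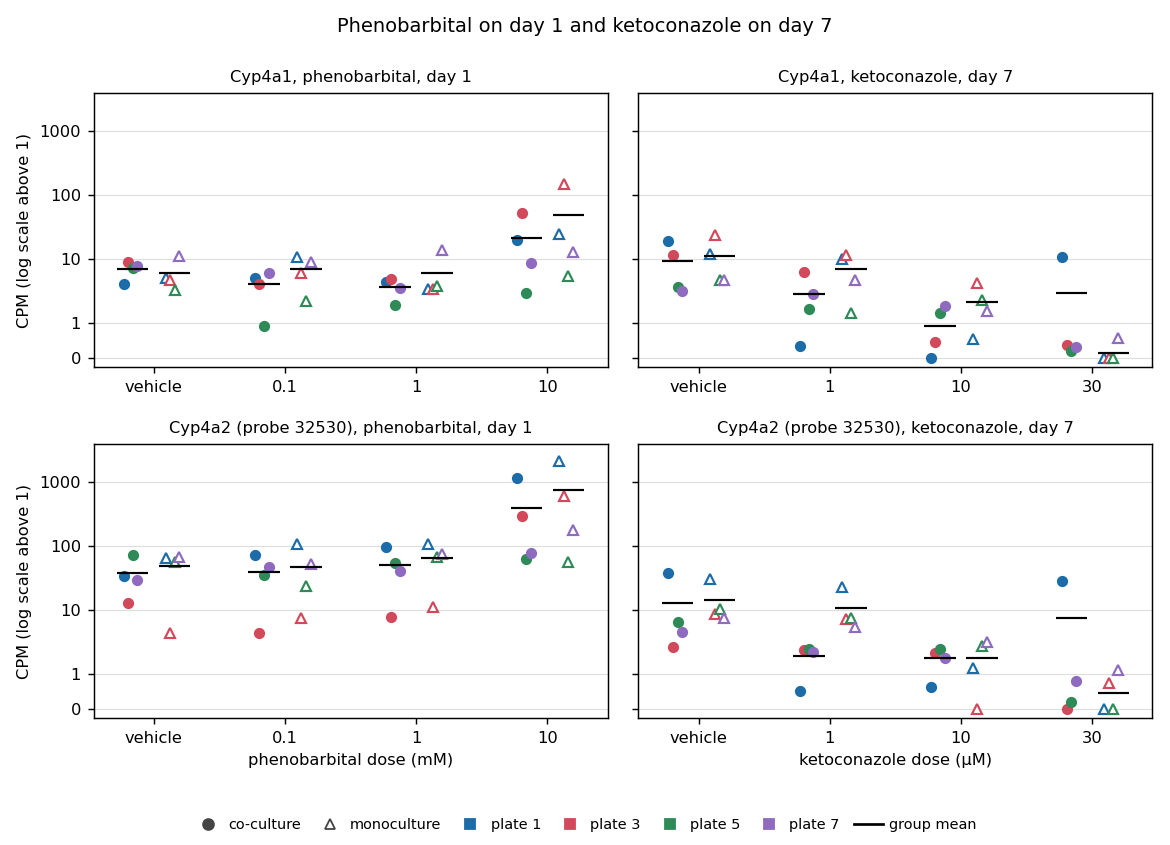
CPM of Cyp4a1 (top) and Cyp4a2 probe 32530 (bottom) by phenobarbital dose on day 1 (left) and ketoconazole dose on day 7 (right), on an axis that is logarithmic above 1 CPM. Each point is 1 well (filled, co-culture; open, monoculture; colours, plates) and bars are group means; with 10 mM phenobarbital plates 1 and 3 are highest for Cyp4a2, and with 30 µM ketoconazole all wells but the co-culture of plate 1 have at most 1.13 CPM.

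In vehicle wells the group means of Cyp4a1 and Cyp4a2 were lowest on day 3, with Cyp4a1 all but absent. In monocultures Cyp4a1 had 0, 0.223, 0 and 0 CPM on day 3 (1 count in 4 libraries), against 5.02, 4.72, 3.28 and 11.3 CPM on day 1, and on day 7 it had 11.8, 23.9, 4.64 and 4.74 CPM. No day 3 well reached any well of the other days. By the same kind of ratio, the level on day 3 was lower than on day 1 by a factor of 105 (counting interval 18.6 to 4176; edgeR adjusted p = 0.0228), and on day 7 it was higher than on day 3 by a factor of 193 (34.4 to 7651; adjusted p = 0.00361). Among the probes of that fit, 0.761% were called lower on day 3 than on day 1 and 8.14% higher on day 7 than on day 3. The call between days 3 and 1 was lost without plate 3, 5 or 7 (adjusted p 0.0987 to 0.158), and the call between days 7 and 3 was kept without each plate.

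In co-cultures 3 of 4 vehicle wells were at 0 for Cyp4a1 on day 3, where the values were 7.28, 0, 0 and 0 CPM, against 4.05, 8.86, 7.21 and 7.81 CPM on day 1. On day 7 Cyp4a1 had 19.2, 11.7, 3.65 and 3.20 CPM, and its difference from day 3 passed with the block and by DESeq2, though not by edgeR without the block (log2 fold change 2.44 ± 1.03, edgeR adjusted p = 0.096, 0.0434 with the block, which called 15.2% of probes higher). On day 3 the 1 well with counts was that of plate 1. Cyp4a2 had 14.6, 1.65, 3.16 and 1.49 CPM in co-cultures of day 3, against 34.4, 12.7, 73.3 and 29.7 CPM on day 1, and 27.3, 0.446, 3.99 and 2.30 CPM in monocultures of day 3, against 65.0, 4.44, 56.9 and 68.9 CPM on day 1. Every plate was lower on day 3 than on day 1 in both cultures, but plate 1 of day 3 overlapped day 1. The log2 fold change of Cyp4a2 was -2.81 ± 1.06 in co-culture (edgeR adjusted p = 0.0917, 0.0032 with the block) and -2.46 ± 1.03 in monoculture (0.204, and 0.00747 with the block). Between days 7 and 1 in co-culture, Cyp4a2 passed with the block alone (-1.46 ± 0.97, adjusted p = 0.286 without and 0.0117 with it). The block fits called 7.29% and 1.71% of probes lower on day 3 than on day 1 in co-culture and monoculture, and 11.1% lower on day 7 than on day 1 in co-culture.

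**Figure D5:**
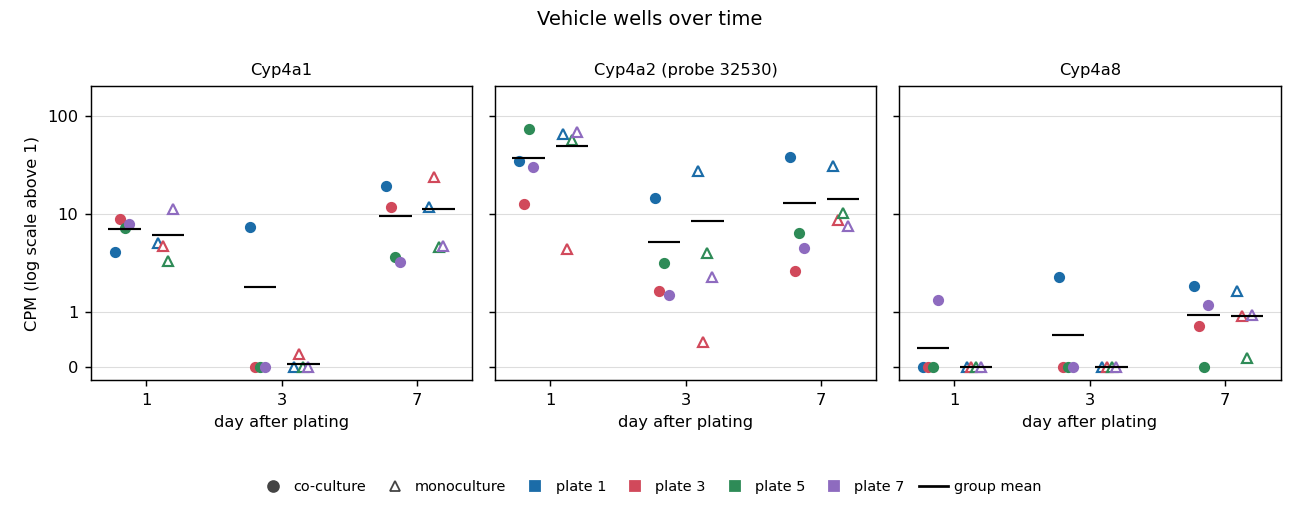
CPM of Cyp4a1, Cyp4a2 probe 32530 and Cyp4a8 in every vehicle well by day after plating, on an axis that is logarithmic above 1 CPM. Each point is 1 well (filled, co-culture; open, monoculture; colours, plates) and bars are group means; Cyp4a1 is at or near 0 on day 3 in all wells but the co-culture of plate 1, and Cyp4a8 has counts mostly on day 7.

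No difference between co-culture and monoculture was detectable for these genes at this depth and spread. In vehicle wells 0 of 7 tests between the cultures passed, with 1 unadjusted p under 0.05, and DESeq2 also called 0. On day 7 Cyp4a2 averaged 12.9 ± 16.9 CPM in co-culture and 14.3 ± 11.1 CPM in monoculture (SD, n = 4 each), a log2 difference of -0.16 ± 1.29 (SE). Macrophage markers did not overlap, with summed levels of 941 to 1916 CPM in co-cultures and 335 to 731 CPM in monocultures of day 7. Differences in response to the highest doses between the cultures passed in 0 of 28 tests by edgeR (2 with an unadjusted p under 0.05) and in 0 by DESeq2. Differences in response between days passed in 0 of 48 tests, with 6 unadjusted p-values under 0.05 and a smallest adjusted p of 0.144.

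Reference genes of exposure moved beside the Cyp4a genes. Acot1, an acyl-CoA thioesterase that PPARα controls, rose with 1 µM GW7647 on day 1 to 51.3 ± 38.3 CPM in monocultures, against 0.164 ± 0.327 CPM with vehicle (SD, n = 4 each; edgeR adjusted p = 0.0215). With 10 mM phenobarbital on day 1, Acot1 rose to 12.8 ± 22.1 CPM in monocultures, against the same vehicle wells (edgeR adjusted p = 0.0173). Pdk4, a fasting-induced kinase of pyruvate dehydrogenase, had 20.6 ± 16.3 CPM there with phenobarbital and 41.1 ± 67.7 CPM with 1000 µM gemfibrozil, against 0.522 ± 0.206 CPM with vehicle, and both rises passed (edgeR adjusted p = 0.00772 and 0.00481). Of the omega-oxidation list, 0 of 21 probes passed with 10 mM phenobarbital on day 1 in either culture.

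PPARα itself was measured in every group. Ppara averaged 44.8 ± 18.0 CPM with 1 µM GW7647 and 34.7 ± 19.4 CPM with vehicle in co-cultures of day 1, and 67.4 ± 38.3 CPM and 38.6 ± 15.7 CPM in monocultures (SD, n = 4 each). On day 3 it averaged 32.5 ± 19.9 CPM with GW7647 (n = 5) and 30.9 ± 16.4 CPM with vehicle (n = 4) in co-cultures, and 29.4 ± 27.4 CPM and 30.5 ± 4.31 CPM in monocultures (n = 4 each). None of these differences passed. Of the 12 other Cyp4 genes listed, 11 had a probe, with 13 probes in all, and not all of these passed the count filter. None of the tested probes was called with any compound at its highest dose, and the others were not tested. Over time in vehicle co-cultures, Cyp4v3, the counterpart of the human omega-hydroxylase CYP4V2, fell to 21.8 ± 3.61 CPM on day 3, against 74.0 ± 52.1 CPM on day 1 (log2 fold change -1.70 ± 0.54, adjusted p = 0.0477 by edgeR), and rose to 69.5 ± 47.1 CPM on day 7 (against day 3, 1.65 ± 0.54, adjusted p = 0.0352). Cyp4f6, of the same subfamily as Cyp4f1, fell to 96.0 ± 26.7 CPM on day 7, against 171 ± 20.3 CPM on day 3 (-0.87 ± 0.28, adjusted p = 0.0354 by edgeR). In vehicle co-cultures the block fit called 7.29% of all probes lower on day 3 than on day 1, and 15.2% higher on day 7 than on day 3. The shares without the block, and the share lower on day 7 than on day 3, are not reported here.

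Cyp4a8, a further omega-hydroxylase of the family, was near the detection floor on days 1 and 3. Among the fits of single days it was tested on day 7 only, and it was also in the fit of all days. In vehicle wells it had 1.85, 0.752, 0 and 1.17 CPM in co-cultures of day 7 and 1.64, 0.936, 0.166 and 0.949 CPM in monocultures, against 0 in all 4 monoculture wells of day 1 and of day 3. In vehicle co-cultures it had 2.30, 0, 0 and 0 CPM on day 3, the 1 positive well being above every vehicle well of day 7, and 0, 0, 0 and 1.33 CPM on day 1. On day 7 with 1 µM GW7647 it had 0, 1.25, 0 and 3.19 CPM in co-cultures and 1.90, 1.90, 0 and 3.32 CPM in monocultures, overlapping the vehicle wells. The log2 fold change was 0.27 ± 1.46 in co-culture and 0.92 ± 1.47 in monoculture (edgeR adjusted p = 1 in both). With 10 mM phenobarbital in monocultures of day 7 Cyp4a8 had 0.432, 0, 0 and 0 CPM, against 1.64, 0.936, 0.166 and 0.949 CPM with vehicle (-2.70 ± 1.61, adjusted p = 0.47 by edgeR). No Cyp4a8 test passed. At levels of about 1 CPM, differences of this size were not detectable at this depth.

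Over the 78 group means, Cyp4a1 and Cyp4a2 followed each other (Pearson r = 0.862, on log2 CPM), and their responses over 72 treated groups did so more closely (r = 0.915). The groups share plates, and the responses also share vehicle groups, so these are descriptions. Among features averaging at least 10 CPM, those most like Cyp4a1 in group means were Slc27a2 (r = 0.869), a very long-chain acyl-CoA synthetase, and Fabp1 (r = 0.862), the liver fatty acid-binding protein. Those most like Cyp4a2 were Fabp1 (r = 0.891), Gpd1 (r = 0.81), Slc27a2 (r = 0.807) and Fbp1 (r = 0.802). In responses, Acat1, a mitochondrial thiolase, came next after the Cyp4a probes for Cyp4a1 (r = 0.831), and Slc27a2 (r = 0.835), Acaa2 (r = 0.834), Acat1 (r = 0.834) and Acot1 (r = 0.815) followed for Cyp4a2. For Cyp4a8 and Cyp4a2 r was -0.031 over group means and 0.34 in responses, and for Cyp4a8 and Cyp4a1 it was 0.343 and 0.397. In group means the features most like Cyp4a8 were F13a1 (r = 0.844), Slit3 (r = 0.824), Sv2c (r = 0.823), Ptprv (r = 0.822) and Sfrp1 (r = 0.819). Cyp4a8 was at 0 in 185 of 311 libraries and had counts in vehicle wells mostly on day 7, so these values rest on few counts. The summed stellate and mesenchymal markers were also higher on day 7, with 2086 to 15240 CPM in vehicle co-cultures of day 7 and 5.62 to 50.0 CPM on day 1, and their part in the Cyp4a8 counts was not tested.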

How the data were processed

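The authors deposited raw counts per TempO-Seq probe. In this targeted assay, pairs of detector probes that meet on an RNA are ligated and sequenced. The counts were made by BioSpyder, per the labels' protocols, and Bowtie is named in the submitters' processing notes. Neither its version nor the genome build nor the probe sequences is given in the sources used here. All 311 columns of counts were matched to samples by name, and 0 columns went unused.

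For each day, all 26 groups were fitted together with edgeR 4.0.16 (filterByExpr with a minimum count of 10, TMM scaling, estimateDisp, glmQLFit and glmQLFTest, two-sided; R 4.3.3, limma 3.58.1). The vehicle groups of the 3 days had a fit of their own, and differences in response between days came from a fit of all 78 groups. P-values were adjusted by Benjamini-Hochberg over all 12504, 13439 and 13707 probes that passed on days 1, 3 and 7, and over 11823 in the vehicle fit. Probe 8425 of Cyp4a2 did not pass on day 7 or in the vehicle fit, and Cyp4a8 passed only on day 7 and in the fit of all days. Alternatives were DESeq2 1.42.0, RLE scaling, no filter, summed probes, the plate as a block and leaving out each plate. Tables, sequences and figures used Python 3.11.15, pandas 2.3.3, Biopython 1.88 and matplotlib 3.10.9. The scripts were tested on simulated data.

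Plate numbers stand in the sample titles and pair the samples by residuals: the mean correlation was 0.209, 0.174 and 0.269 within a plate and -0.0788, -0.0565 and -0.0979 between plates on days 1, 3 and 7. The floor of 3 counts was 0.244 to 7.27 CPM per library. Floors and counting intervals cover counting error only. The member genes and gene lists were chosen with earlier results of these data known. Genes of the lists were named where they passed with a mean of at least 10 CPM in 1 of the groups, besides all member genes, Ppara (named after its values were seen) and the reference genes of exposure. The dose steps and the settings without the plate 3 co-culture library with GW7647 were added after the values were seen. The values of some genes of the lists are not reported here.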

Additional observations from a re-analysis of the deposited data

Results flagged for a closer look

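Outlying wells were looked for in 83 combinations of Cyp4a1 or Cyp4a2 with a group of 4 or 5 libraries and a mean of at least 10 CPM. The gap between the extreme well and its nearest neighbour was set against the group's range on the log2 scale. By Dixon's criterion 10 combinations stood apart, each through 1 well. By the criterion's nominal rate, chance sets apart about 1 in 20 of such combinations. Both genes share wells, so the combinations are not independent. For Cyp4a1, the extreme wells were the co-culture well of plate 1 with 0.1 µM GW7647 on day 3, at 63.99 CPM, the co-culture well of plate 3 with 1 µM GW7647 on day 3, at 0 CPM, and the monoculture well of plate 5 with 1000 µM gemfibrozil on day 7, at 0 CPM. For Cyp4a2 with GW7647, they were the co-culture wells of plate 1 on day 7, at 632.8 CPM with 0.01 µM and 1110.0 CPM with 0.1 µM, and the co-culture well of plate 3 with 1 µM on day 3, at 0 CPM. With 1000 µM gemfibrozil, the co-culture well of plate 3 on day 1 had 238.3 CPM of Cyp4a2 and the monoculture well of plate 1 on day 7 had 179.6 CPM. The last 2 were monoculture wells of plate 3 on day 1, at 3.597 CPM of Cyp4a2 with 1 µM ketoconazole and 4.436 CPM with vehicle. All 10 combinations lay on plates 1, 3 or 5, and 5 of them on plate 3, where the co-culture well with 1 µM GW7647 counts for both genes. No difference in response between cultures or days passed.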

How the results depend on the processing

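With the plate as a replicate block the calls of Cyp4a1, Cyp4a2 and Cyp4a8 numbered 10 higher under GW7647 (2 without the block), 2 higher under phenobarbital (1), 2 lower under ketoconazole (0) and, over time in vehicle, 2 higher (1) and 4 lower (1). DESeq2 gave 12 higher under GW7647, 3 under phenobarbital, 2 lower under ketoconazole, 5 higher for GW7647 against gemfibrozil (3 by edgeR), and 2 higher and 2 lower over time. RLE scaling gave 1 lower under ketoconazole, and no filter gave 1 higher for GW7647 against gemfibrozil. Leaving out 1 plate gave 0 to 2 calls under GW7647, 0 to 2 under gemfibrozil, 0 to 1 under phenobarbital, 0 to 4 for GW7647 against gemfibrozil, and 1 to 2 higher and 0 to 5 lower over time. The sign turned in 4 cases, and the cause was not tested: without plate 3, 1000 µM gemfibrozil in co-cultures of day 1 gave log2 fold changes of -1.37 for Cyp4a1 and -0.345 for Cyp4a2 (up to 4.10 without plate 7 and 1.96 without plate 5), and between days 7 and 1 in vehicle co-cultures Cyp4a1 gave -0.078 with the block and -0.325 without plate 1 (up to 0.777 without plate 7). Of 36 single-gene results, DESeq2 kept 25 on their side of the threshold and moved 11 past it, the block kept 21 and moved 13 past it, and summing the probes of a gene kept 36. Leaving out the library under 1000000 counts kept 12 of 12. For differences in response between days, the other settings were not run on the fit of all 78 groups, apart from a fit of the vehicle and highest-dose groups with and without the replicate block, which gave 0 calls each. Cyp4a8 and probe 8425 were limited by depth, with 0 counts in 185 and 184 of 311 libraries.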
